A study of Homo sapiens with 30 samples.

Results

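The 10 genes described here encode cytokines that signal through gp130, their receptors, the kinase and transcription factor that carry the signal, and the inhibitor that ends it. They are the ligands IL6, IL11 and LIF, the receptor chains IL6ST, IL6R, LIFR and OSMR, the transducers JAK1 and STAT3, and the inhibitor SOCS3. Members were found as the probes that carry one of these names on the arrays, which gave 22 of 58201 probes. A probe was tested where each of the 3 arrays of some group had it well above background, which held for 20 of the 22 and for 32100 probes in all, with 24540 gene names. The other 2, a second IL6 probe (A_33_P3407013) and a second JAK1 probe (A_21_P0001139), were well above background on 0 arrays.

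The cells, of the immortalized human bronchial line BEAS-2B, were held at an air-liquid interface (ALI), where the upper side of the cell layer meets air and the medium is below. Pollen cells received 10 mg of whole birch pollen, dispersed by pressured air and left to settle, and the matched air (mock) cells went through the same handling without pollen. RNA was taken early, after 10 min, 55 min or 2h25 min, or late, after 6h50 min or 24 h, with 3 one-colour arrays in each of the 10 groups, 30 in all. All 30 cultures shared the line, the interface and the move to the chamber, and no culture that stayed in the incubator is among them. One immortalized line stands here for the bronchial epithelium. The methods speak of independent repetitions on different days, and the labels only number the replicates.

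The arrays sat on 5 slides. Slide 1 held all 10 min arrays and 1 air array of 55 min. Slide 2 held 2 arrays of each exposure at 55 min and at 2h25 min, and slide 3 held 1 pollen array of 55 min alone, which is of a second design with fewer of these probes. Slide 4 held the remaining 2h25 min array of each exposure with all 24 h arrays, and slide 5 held all 6h50 min arrays, so that 6h50 min and slide 5 cannot be told apart. The share of probes well above background ran from 44.7% to 59.3% over the arrays, and saturation affected 0 spots. Of the marker lists, 7 of 7 epithelial and 3 of 3 mesenchymal genes were well above background on all arrays, against 0 of 5 genes of ciliated or secretory cells, 2 of 6 of immune cells (PTPRC and CD14) and 1 of 3 of endothelium (CDH5). Of the secretory genes, SCGB1A1 was well above background on 29 of 30 arrays and MUC5AC on 27, and VWF of endothelium was so on 28 of 29. No cell type was sorted out of these bulk samples, so that fewer cells of a type and less RNA per cell cannot be told apart.

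Interleukin-6 type cytokines bind a receptor chain of their own and then bring in gp130, the shared chain encoded by IL6ST. The JAK kinases bound to the receptor phosphorylate STAT3, which enters the nucleus and switches on its target genes. SOCS3 is one of these targets, binds the receptor and JAK and so closes a negative feedback loop. Airway epithelium is known to make IL6 and LIF in response to injury, particles and microbes, and the messages of IL6, LIF and SOCS3 are short-lived.

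To show the DNA in front of the genes that moved most, the 250 bases before the start of 3 of them are printed from RefSeq on GRCh38.p14, 5′ to 3′ on the strand of the gene, with the letters of a searched motif in capitals. They lie at chr7:22726950-22727199 on the plus strand (IL6), at chr19:55370464-55370713 on the minus strand (IL11) and at chr17:78360926-78361175 on the minus strand (the second of 2 SOCS3 entries).
IL6: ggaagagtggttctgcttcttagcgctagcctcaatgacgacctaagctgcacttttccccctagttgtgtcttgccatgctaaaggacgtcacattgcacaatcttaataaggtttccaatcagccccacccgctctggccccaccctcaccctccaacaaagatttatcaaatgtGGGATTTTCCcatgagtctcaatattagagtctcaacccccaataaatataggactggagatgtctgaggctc
IL11: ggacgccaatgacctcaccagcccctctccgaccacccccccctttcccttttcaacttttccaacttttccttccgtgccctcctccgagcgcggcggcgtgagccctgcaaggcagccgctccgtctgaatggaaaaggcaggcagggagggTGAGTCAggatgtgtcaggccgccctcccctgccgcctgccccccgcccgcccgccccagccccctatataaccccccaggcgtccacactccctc
SOCS3: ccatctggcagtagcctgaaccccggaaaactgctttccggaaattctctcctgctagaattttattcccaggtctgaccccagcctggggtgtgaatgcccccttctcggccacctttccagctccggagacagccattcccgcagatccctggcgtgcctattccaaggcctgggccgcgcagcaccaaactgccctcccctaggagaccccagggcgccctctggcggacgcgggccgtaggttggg
Of the 10 genes, 9 matched the RefSeq table, with 14 entries. Both strands were searched for NF-kB letters (GGG, any 2 bases, then TTTCC), AP-1 letters (TGANTCA), STAT letters (TTCNNNGAA) and cyclic AMP response element letters (TGACGTCA). The IL6 stretch holds GGGATTTTCC starting 73 bases before the gene, the IL11 stretch holds TGAGTCA 96 bases before the gene, and the SOCS3 stretch holds none of the motifs. The only other matches in the 14 entries are STAT letters before 2 of the 3 LIFR entries, TTCATCGAA and TTCCTTGAA. Of 35114 promoter stretches of the same length in the table, 1.73% hold the NF-kB letters, 6.57% the AP-1 letters, 6.57% the STAT letters and 1.65% the cyclic AMP letters. These are matches of letters and no measurement of binding.

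All levels below are the log2 intensity of a probe minus the 75th percentile of its array, so that a value of 0 is as bright as that percentile and a step of 1 is a change by the factor 2. Levels of different probes cannot be set against each other, since probes differ in how brightly they bind. Differences are log2 differences from limma on all 30 arrays with Benjamini-Hochberg adjustment over the 32100 probes, and a member is called at an adjusted p under 0.05 and at least a 1.1-fold change.

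**Figure D1:**
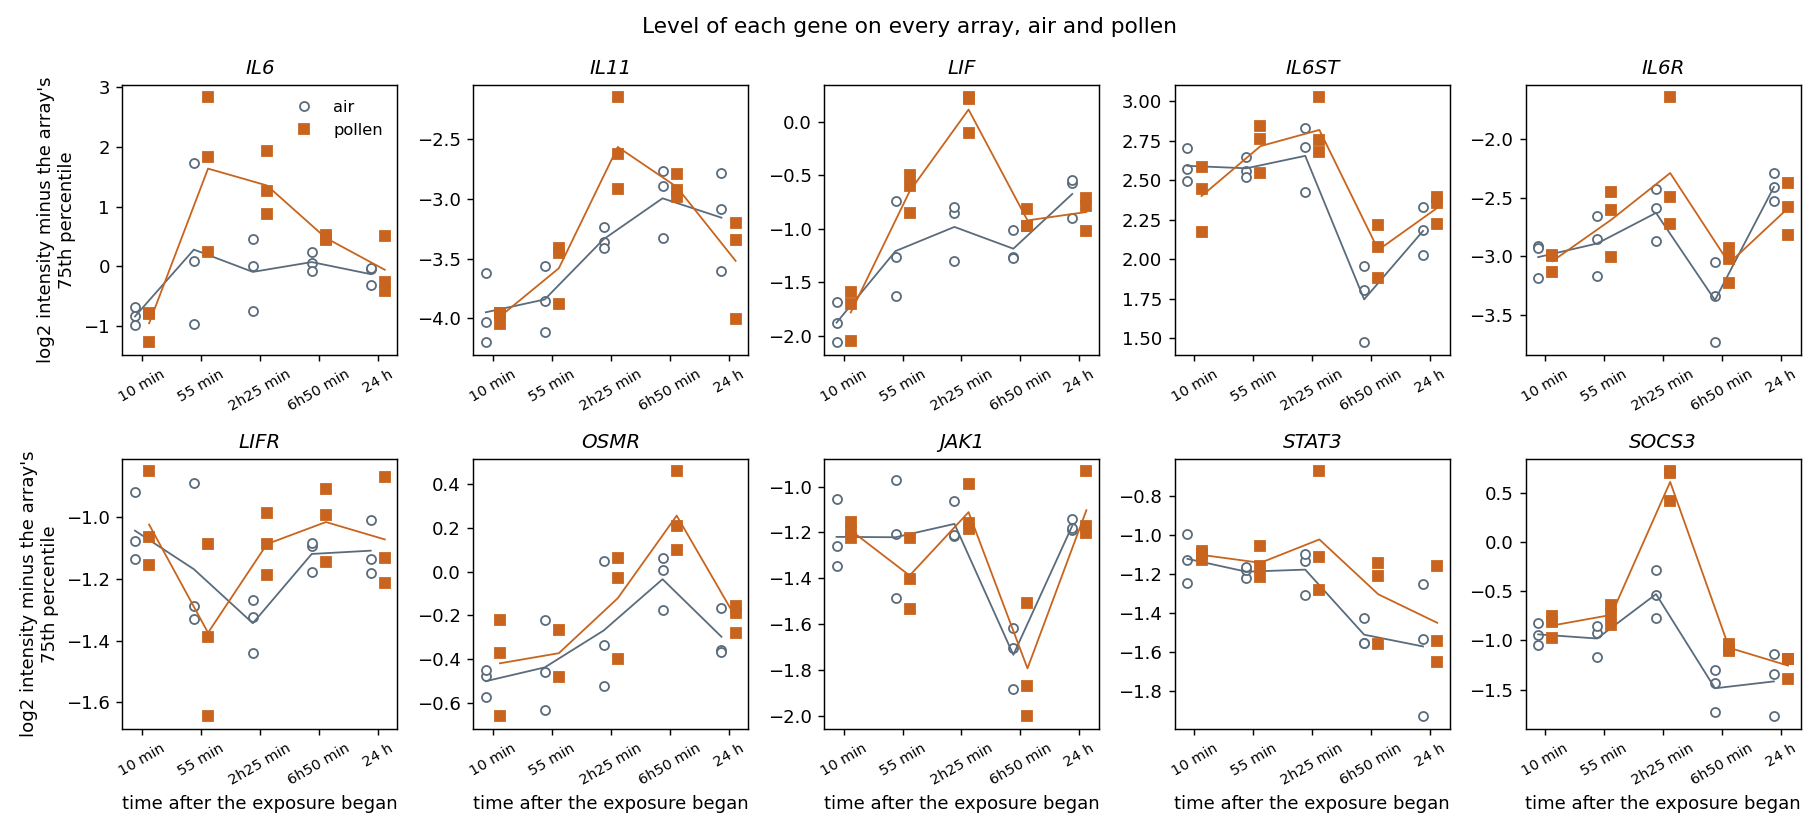
Level of each of the 10 genes on every array, as log2 intensity minus the array's 75th percentile (vertical axis, a scale per gene) against the labelled time (horizontal axis). The axis reads time after the exposure began, but the labels do not give the zero point. Circles are air arrays, squares pollen arrays, 3 each, and lines join the group means. LIF and SOCS3 pollen arrays of 2h25 min, at -0.10 to 0.23 and 0.41 to 0.72, sit above every air array of the series in these panels, and the OSMR panel has 2 pollen arrays at 55 min.

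Pollen set apart 2 of the 10 genes from air, both at 2h25 min: LIF was up-regulated 2.14-fold and SOCS3 2.20-fold. IL6 had the largest difference, 2.73-fold at 2h25 min and 2.56-fold at 55 min, but it did not pass the test, with an SE of 0.53. With the replicate number as a block, IL6 was called at 2h25 min. The receptors, JAK1 and STAT3 did not pass the test against air at any of the 5 times. Across all probes, the percentage called in either direction was 0% at 10 min, 0.00312% at 55 min, 0.0343% at 2h25 min, 0.0436% at 6h50 min and 0.00312% at 24 h, so that 2 of 10 members at 2h25 min stand against 11 of 32100 probes. The median difference of the 10 members, 1 probe each, was 0.02 at 10 min, 0.17 at 55 min, 0.30 at 2h25 min, 0.28 at 6h50 min and 0.07 at 24 h. Over all tested probes it was 0.0064, -0.0066, -0.032, 0.0011 and -0.0033 at the same times.

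**Figure D2:**
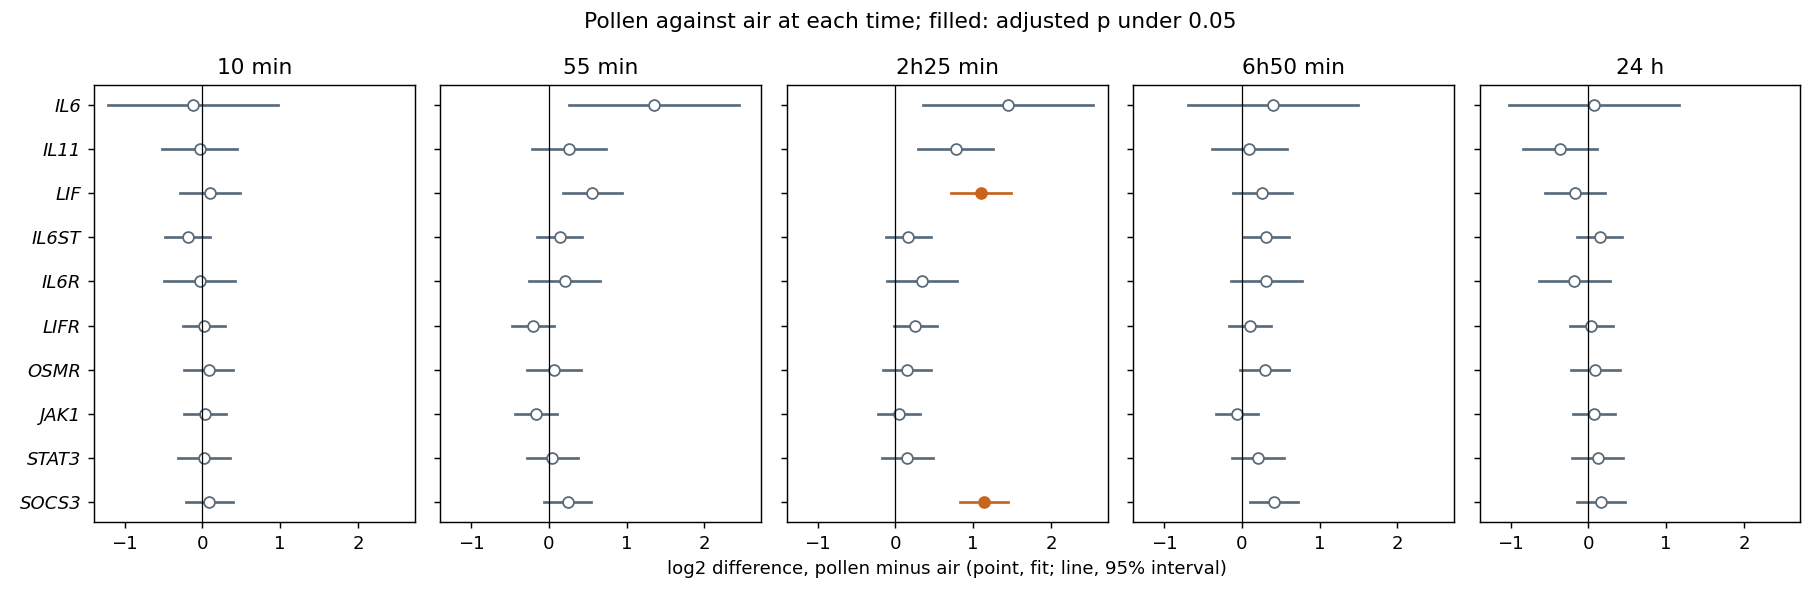
Log2 difference between pollen and air (horizontal axis, pollen minus air) for each of the 10 genes (rows) at each of the 5 times (panels). Points are limma's estimates from 3 arrays per group (2 pollen arrays for OSMR at 55 min), lines their 95% intervals, and filled points passed at an adjusted p under 0.05. LIF (1.097) and SOCS3 (1.14) at 2h25 min are the filled points, and the IL6 lines are the widest.

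IL6 encodes interleukin-6, the cytokine that gives the family its name. Its probe A_23_P71037 lies at chr7:22771207-22771266 (hg19, plus strand). In air the IL6 level on the 3 arrays was -0.69, -0.84 and -0.99 at 10 min and -0.97, 0.08 and 1.73 at 55 min. In pollen it was -0.80, -0.79 and -1.27 at 10 min and 0.24, 1.84 and 2.83 at 55 min. The exposures overlapped at 10 min, and at 55 min each spread over more than 2 log2 units and overlapped the other.

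At 55 min the 3 arrays of the same replicate number each had more IL6 in pollen, by 1.21, 1.75 and 1.101. Of all probes with these values, 13.8% were higher in pollen for all 3 numbers. The replicate numbers did not pair the arrays at this time. The fitted IL6 difference at 55 min was 1.36 ± 0.53 (SE, n = 3 against 3, limma adjusted p = 0.92), which is not called. On slide 2 alone, with 2 arrays of each exposure, it was 1.43. With arrays weighted by their quality, it was 1.84 and was called (limma adjusted p = 0.00848), as were 231 of 32100 probes in place of 1. The weights were 0.117 for the second-design array, 6.32 for air replicate 2 and 3.34 for pollen replicate 2. Over all alternatives the adjusted p of IL6 ran from 0.00848 to 1.

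At 2h25 min the IL6 level was 0.45, -0.75 and 0.01 in air and 1.92, 1.26 and 0.87 in pollen, so that all 3 pollen arrays lay above all 3 air arrays. By replicate number IL6 was higher in pollen by 1.47, 2.01 and 0.86, and 12.9% of all probes were higher in all 3 pairs. The fitted difference was 1.45 ± 0.53 (SE, n = 3 against 3, limma adjusted p = 1), with a 95% interval of 0.35 to 2.54. With the replicate number as a block (the numbers pair the arrays at this time), the IL6 difference had an SE of 0.24 and was called (limma adjusted p = 0.0436). Within slides it was 1.74 on slide 2, with 2 arrays against 2, and 0.86 on slide 4, with 1 against 1.

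Later the IL6 exposures drew together. At 6h50 min the level was 0.05, 0.24 and -0.07 in air and 0.44, 0.46 and 0.52 in pollen, which did not overlap, with a fitted difference of 0.40 (limma adjusted p = 0.983). At 24 h it was -0.32, -0.05 and -0.02 in air and 0.51, -0.27 and -0.41 in pollen, which overlapped.

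LIF encodes leukemia inhibitory factor, a ligand that pairs LIFR with gp130. Its probe A_24_P122137 lies at chr22:30636713-30636772 (hg19, minus strand). In air the LIF level was -1.88, -1.69 and -2.06 at 10 min, -1.63, -1.26 and -0.74 at 55 min and -0.85, -1.30 and -0.80 at 2h25 min. In pollen it was -1.71, -1.60 and -2.05 at 10 min, -0.86, -0.50 and -0.60 at 55 min and 0.23, 0.21 and -0.10 at 2h25 min. The exposures overlapped at 10 min, overlapped through 1 air array at 55 min and did not overlap at 2h25 min.

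LIF at 2h25 min differed by 1.097 ± 0.18 (SE, n = 3 against 3, limma adjusted p = 0.0271), and by replicate number by 1.08, 1.51 and 0.70. Within slide 2 the LIF difference was 1.30 and within slide 4 it was 0.70, and with slide as a block its adjusted p was 0.0107. At 55 min it was 0.56 ± 0.18 (limma adjusted p = 0.92), not called, with 0.45 on slide 2 alone. With weighted arrays it was 0.70 at 55 min and was called (limma adjusted p = 0.0136), as were 231 of 32100 probes. The call at 2h25 min rested on most of its arrays: the adjusted p was 0.0823 without air replicate 1, 0.295 without air replicate 2, 0.204 without pollen replicate 1 and 0.213 without pollen replicate 2, with differences of 0.94 to 1.16. LIF was called in 11 of 19 alternatives.

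At 6h50 min the LIF level was -1.27, -1.02 and -1.28 in air and -0.82, -0.97 and -0.97 in pollen, which did not overlap, with a fitted difference of 0.26 (limma adjusted p = 0.885). At 24 h the level was -0.58, -0.90 and -0.55 in air and -0.72, -1.02 and -0.79 in pollen, which overlapped, with a difference of -0.17 that did not pass (limma adjusted p = 1). A second LIF probe (A_24_P233488) was well above background on 10 of 30 arrays and passed in none of the comparisons with air. It lies in a dim area of the air replicate 1 array at 6h50 min.

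IL11 encodes interleukin-11, a gp130 ligand made by stromal and epithelial cells in repair. Its probe A_33_P3243887 lies at chr19:55875788-55875847 (hg19, minus strand). At 55 min the IL11 level was -4.12, -3.85 and -3.56 in air and -3.88, -3.41 and -3.45 in pollen, which overlapped. At 2h25 min it was -3.24, -3.36 and -3.42 in air and -2.63, -2.15 and -2.92 in pollen, and every pollen array lay above every air array. The IL11 difference at 2h25 min was 0.77 ± 0.23 (SE, n = 3 against 3, limma adjusted p = 0.913), which is not called, with 0.61, 1.21 and 0.49 by replicate number, 0.91 within slide 2 and 0.49 within slide 4. At 24 h the IL11 level was -2.78, -3.60 and -3.09 in air and -3.21, -4.01 and -3.35 in pollen, with a difference of -0.36 (limma adjusted p = 1), and pollen was the lower of each replicate pair.

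**Figure D3:**
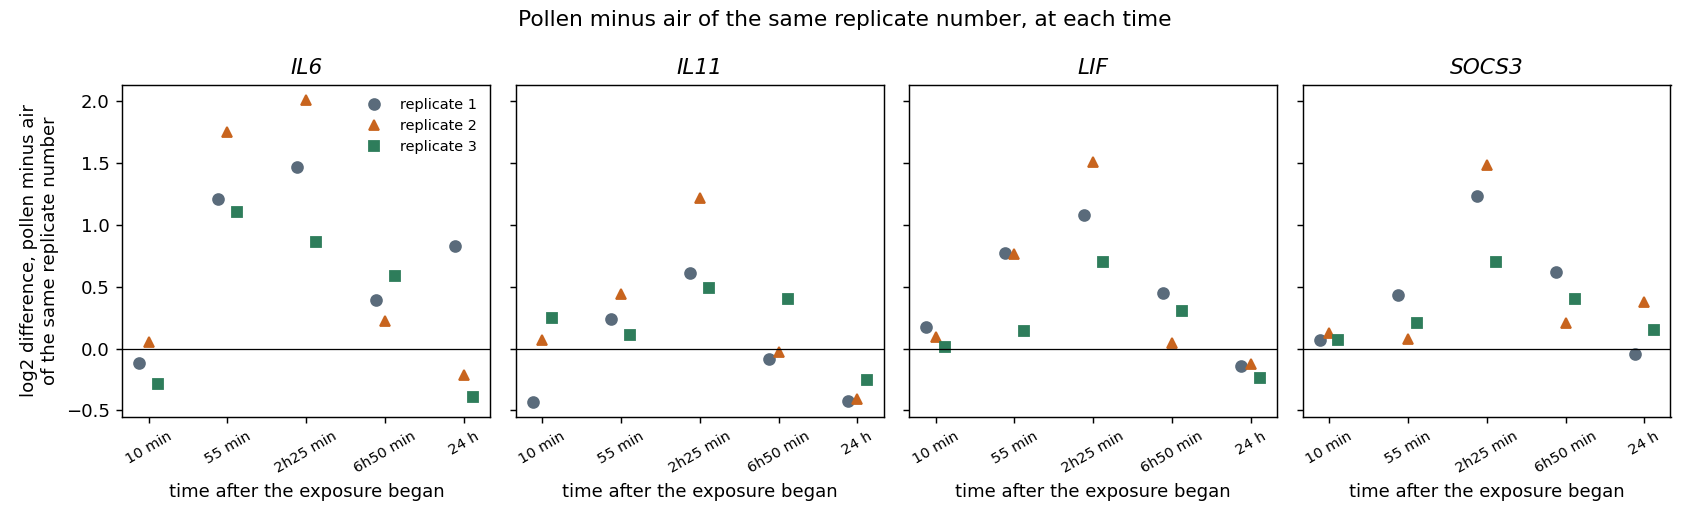
Log2 difference between the pollen and the air array of the same replicate number (vertical axis) for IL6, IL11, LIF and SOCS3 at the 5 times (horizontal axis); 1 marker per replicate number. At 2h25 min all 12 markers are above 0, from 0.49 for IL11 to 2.01 for IL6, and replicate 3 is the lowest for each of the genes. Of all probes, 12.9% are above 0 in all 3 pairs at that time.

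SOCS3 encodes the inhibitor of the pathway, and its probe A_23_P207058 lies at chr17:76353127-76353186 (hg19, minus strand). In air the SOCS3 level was -1.04, -0.95 and -0.82 at 10 min, -1.17, -0.92 and -0.85 at 55 min and -0.54, -0.77 and -0.29 at 2h25 min. In pollen it was -0.98, -0.82 and -0.75 at 10 min, -0.73, -0.85 and -0.65 at 55 min and 0.70, 0.72 and 0.41 at 2h25 min. Up to 55 min SOCS3 stayed within a narrow band in both exposures, and at 2h25 min its lowest pollen array lay well above its highest air array.

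The SOCS3 difference at 2h25 min was 1.14 ± 0.15 (SE, n = 3 against 3, limma adjusted p = 0.00153), with a 95% interval of 0.83 to 1.45 and 1.23, 1.48 and 0.70 by replicate number. Within slide 2 it was 1.36 and within slide 4 it was 0.70, and it was called without each of the 6 arrays in turn. The SOCS3 call was lost with each array scaled on its own probes (limma adjusted p = 0.514) and with only the 6 arrays compared in the fit (adjusted p = 1). At 55 min the fitted SOCS3 difference was 0.24 ± 0.15 (limma adjusted p = 0.92), although the exposures just failed to overlap, and within slide 2 it was 0.14. With each array scaled on its own probes, which treats the second-design array unlike the rest, it was -0.17.

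At 6h50 min the SOCS3 level was -1.72, -1.30 and -1.44 in air and -1.10, -1.09 and -1.03 in pollen, again without overlap. The difference of 0.41 ± 0.15 (SE, n = 3 against 3) had an adjusted p of 0.39 from limma and is not called. At 24 h the level was -1.14, -1.77 and -1.34 in air and -1.18, -1.39 and -1.19 in pollen, which overlapped.

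The receptor chains and transducers differed less between the exposures. IL6ST (probe A_33_P3233841, chr5:55238513-55238572, hg19) stood at 2.83, 2.71 and 2.43 in air and 3.03, 2.75 and 2.68 in pollen at 2h25 min. At 6h50 min it stood at 1.80, 1.96 and 1.47 in air and 1.88, 2.22 and 2.08 in pollen, which overlapped, with a difference of 0.31 ± 0.14 (SE, n = 3 against 3, limma adjusted p = 0.615). Over the 5 times, the differences of the receptors between pollen and air ran from -0.19 to 0.31 for IL6ST, from -0.18 to 0.34 for IL6R, the chain that binds interleukin-6, from -0.21 to 0.26 for LIFR, the chain that binds LIF, and from 0.07 to 0.29 for OSMR, the chain that binds oncostatin M. For OSMR the second-design array held no such probe, so that its 55 min value of 0.07 rests on 2 pollen arrays.

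The kinase gene JAK1 ranged from -0.17 to 0.07 and STAT3 from 0.02 to 0.21 between pollen and air. At 2h25 min the 95% interval of the STAT3 difference was -0.17 to 0.48 and that of JAK1 -0.22 to 0.32, which leaves room for changes of up to about those sizes. At that time STAT3 stood at -1.13, -1.10 and -1.31 in air and at -1.28, -0.67 and -1.11 in pollen, where the second replicate alone was high. LIFR stood at -1.44, -1.27 and -1.32 in air and at -1.09, -0.99 and -1.19 in pollen, which did not overlap, with a difference of 0.26 (limma adjusted p = 1).

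Counted over the 10 members, pollen arrays lay wholly above air arrays for 1 gene (SOCS3) at 55 min, for 5 (IL6, IL11, LIF, LIFR and SOCS3) at 2h25 min and for 4 (IL6, LIF, OSMR and SOCS3) at 6h50 min. The percentages of all tested probes that did so were 5.99%, 2.85% and 6.52%. The second OSMR probe overlapped at 6h50 min, where air reached up to -2.68 and pollen down to -2.71. At 10 min and at 24 h pollen arrays lay wholly above or below air arrays for 0 members. Over all probes 3.86% lay above and 1.96% below at 10 min, and 5.33% above and 3.47% below at 24 h. The differences were positive for 6 of 10 members at 10 min, 8 at 55 min, 10 at 2h25 min, 9 at 6h50 min and 7 at 24 h. Over all probes the shares that were positive were 51.9%, 48.5%, 41.6%, 50.2% and 49.1% at the same times. The members were chosen with earlier results of these data known.

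Whether the pollen difference itself changed from one time to the next was tested by interaction contrasts, and 0 of 10 members passed in each of the 4. Over all probes the percentage called was 0% from 10 to 55 min, 0% from 55 min to 2h25 min, 0.00312% from 2h25 min to 6h50 min and 0% from 6h50 min to 24 h. The SOCS3 difference was larger at 2h25 min than at 55 min by 0.90 ± 0.21 (SE, limma adjusted p = 1), and that of LIFR by 0.46 (adjusted p = 1). From 2h25 min to 6h50 min the pollen difference changed by -0.83 for LIF, -0.73 for SOCS3 and -0.68 for IL11, with limma adjusted p-values of 0.747, 0.747 and 0.892. For IL6 the change from 55 min to 2h25 min was 0.09, with a 95% interval of -1.45 to 1.64. From 2h25 min to 6h50 min the IL6 change was -1.04, with a 95% interval of -2.59 to 0.50.

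Within the pollen arm, IL6 and LIF rose from 10 to 55 min and SOCS3 from 55 min to 2h25 min. From 10 to 55 min IL6 rose 6.02-fold (2.59 ± 0.53, SE, limma adjusted p = 0.0194) and LIF 2.19-fold (1.13 ± 0.18, adjusted p = 0.00456), 2 of 10 members where 0.841% of all probes were called. From 55 min to 2h25 min SOCS3 rose 2.55-fold (1.35 ± 0.15, limma adjusted p = 8.32e-05), 1 of 10 members where 0.202% of all probes were called. IL11 differed by 1.02 (adjusted p = 0.0753) and LIF by 0.76 (adjusted p = 0.107) over the same step and did not pass, while IL6 differed by -0.28. LIFR, at 0.29 (limma adjusted p = 0.576), and JAK1, at 0.28 (0.585), did not pass either, nor did IL6ST at 0.32 (0.291) and LIFR at -0.35 (0.215) from 10 to 55 min.

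The early pollen step compares different slides. With slide as a block the IL6 difference from 10 to 55 min was 1.41 and that of LIF 0.61, and both calls were lost. For this step the block ties slide 1 to the later slides through 1 array alone, air replicate 1 of 55 min. Both values therefore depend on that array. The IL6 call was also lost without pollen replicate 1, 2 or 3 at 10 min (adjusted p = 0.0661, 0.0569 and 0.0732) or without pollen replicate 2 at 55 min (0.0528), with differences of 2.43 to 2.67. The SOCS3 rise from 55 min to 2h25 min was 1.45 within slide 2, with 2 arrays against 2, and 1.34 with slide as a block (limma adjusted p = 0.0033).

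In air IL6, LIF, SOCS3 and IL11 did not pass the test over the first steps. From 10 to 55 min, where 0.187% of all probes were called, the air difference was 1.12 ± 0.53 for IL6 (limma adjusted p = 0.45) and 0.67 ± 0.18 for LIF (adjusted p = 0.159). From 55 min to 2h25 min, where 0.0156% were called, it was 0.45 ± 0.15 for SOCS3 (limma adjusted p = 0.94) and 0.50 ± 0.23 for IL11 (adjusted p = 0.999). Air replicate 3 at 55 min, at an IL6 level of 1.73, stood far above the other air arrays. With slide as a block the IL6 difference was -0.13. That value sets only air replicate 1 of 55 min, at -0.97, against the 10 min air arrays of slide 1. Without air replicate 1 at 55 min the LIF difference was 0.88 and passed (adjusted p = 0.0274).

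After 2h25 min several members fell in both arms. From 2h25 to 6h50 min in air IL6ST fell by 0.91, IL6R by 0.74, JAK1 by 0.57 and SOCS3 by 0.96 on the log2 scale (limma adjusted p = 8.66e-05, 0.0132, 0.00249 and 9e-05), 4 of 10 members where 32.4% of all probes were called. In pollen LIF fell by 1.04, IL6ST by 0.76, IL6R by 0.77, JAK1 by 0.68 and SOCS3 by 1.68 (limma adjusted p = 0.00032, 0.000417, 0.011, 0.000614 and 2.49e-07), 5 of 10 where 31% of all probes were called. OSMR in pollen, at 0.38, did not pass (limma adjusted p = 0.0617). With so much of the array moving and the 6h50 min arrays on a slide of their own, these shares are no result about the members, and slide cannot be told apart from time. The IL6R fall in pollen was 0.44 on the log2 scale, not called, without pollen replicate 2 at 2h25 min (adjusted p = 0.105), and that in air was lost without air replicate 2 at 2h25 min (0.0721) or air replicate 3 at 6h50 min (0.076).

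From 6h50 min to 24 h in air LIF rose by 0.51, IL6ST by 0.43, IL6R by 0.96 and JAK1 by 0.56 (limma adjusted p = 0.0312, 0.0169, 0.00151 and 0.00179), 4 of 10 members where 40.5% of all probes were called. In pollen JAK1 rose by 0.69, while IL11 fell by 0.62 and OSMR by 0.46 (limma adjusted p = 0.000368, 0.04 and 0.0204), 3 of 10 where 36.2% of all probes were called. IL6R in pollen, at 0.47, did not pass (limma adjusted p = 0.0981). JAK1 was therefore lower at 6h50 min than at 2h25 min and at 24 h in both arms. In air it went from -1.16 ± 0.09 to -1.73 ± 0.13 and back to -1.17 ± 0.03 (SD, n = 3). As for the step before, slide cannot be told apart from time, and these shares are no result about the members. The LIF rise in air lost its call without air replicate 1 or 3 at either time (adjusted p = 0.086 to 0.0982), and IL6ST lost its call without air replicate 3 at either time (0.113 and 0.0757). The IL11 fall was lost without any one pollen array of 6h50 min (0.0636 to 0.114) or without pollen replicate 2 at 24 h (0.246), and the OSMR fall without pollen replicate 3 at 6h50 min (0.0975) or replicate 2 at 24 h (0.0686).

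To step over the slide of 6h50 min, 24 h was also set against 2h25 min, a comparison chosen after the data were seen. In pollen SOCS3 fell to 0.275 of its earlier level (-1.86 ± 0.15, limma adjusted p = 2.43e-08), LIF to 0.515 (-0.96 ± 0.18, adjusted p = 0.000626), IL11 to 0.516 (-0.95 ± 0.23, adjusted p = 0.00422) and IL6ST to 0.71 (-0.49 ± 0.14, adjusted p = 0.0125), 4 of 10 members where 23% of all probes were called. In air SOCS3 fell to 0.541 of its earlier level (-0.89 ± 0.15, limma adjusted p = 9.86e-05) and IL6ST to 0.719 (-0.48 ± 0.14, adjusted p = 0.0132), 2 of 10 where 27.4% were called. IL6 in pollen differed by -1.41 ± 0.53, without overlap, and did not pass (limma adjusted p = 0.0567), and it was called in 4 of 18 alternatives. STAT3 differed by -0.43 in pollen (limma adjusted p = 0.055) and by -0.39 in air (0.0696), not called, and was called in 5 and 2 of 18 alternatives. On slide 4, which holds 1 array of 2h25 min and all 3 of 24 h in each arm, the SOCS3 difference was -1.13 in air and -1.67 in pollen, and that of LIF 0.12 in air and -0.74 in pollen. With slide as a block SOCS3 was called in both arms (limma adjusted p = 0.00157 in air and 4.05e-06 in pollen) and LIF in pollen (0.00396), while IL6ST was called in neither arm (0.254 and 0.248) and IL11 in pollen was not (0.0694). IL6ST was also lost without air replicate 1 or 2 at 2h25 min or replicate 1 at 24 h in air (0.0513 to 0.0752), and without pollen replicate 1 at 2h25 min or at 24 h in pollen (0.0744 and 0.0624).

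Several genes have more than 1 tested probe, which shows how far a gene's account depends on the probe. All 7 IL6ST probes were called lower at 24 h than at 2h25 min in both arms, by 0.32 to 0.87 on the log2 scale in air and by 0.40 to 0.99 in pollen. At 6h50 min they parted: in air their difference from 2h25 min ran from -1.27 to -0.07, and 5 of the 7 passed. The probe with the largest fall, A_33_P3233843, lies in a dim area of the air arrays of replicates 1 and 2 at 6h50 min, and it is also the IL6ST probe with the largest difference between pollen and air at that time (0.57, limma adjusted p = 0.191). Over the 7 probes that pollen difference at 6h50 min ran from -0.11 to 0.57.

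**Figure D4:**
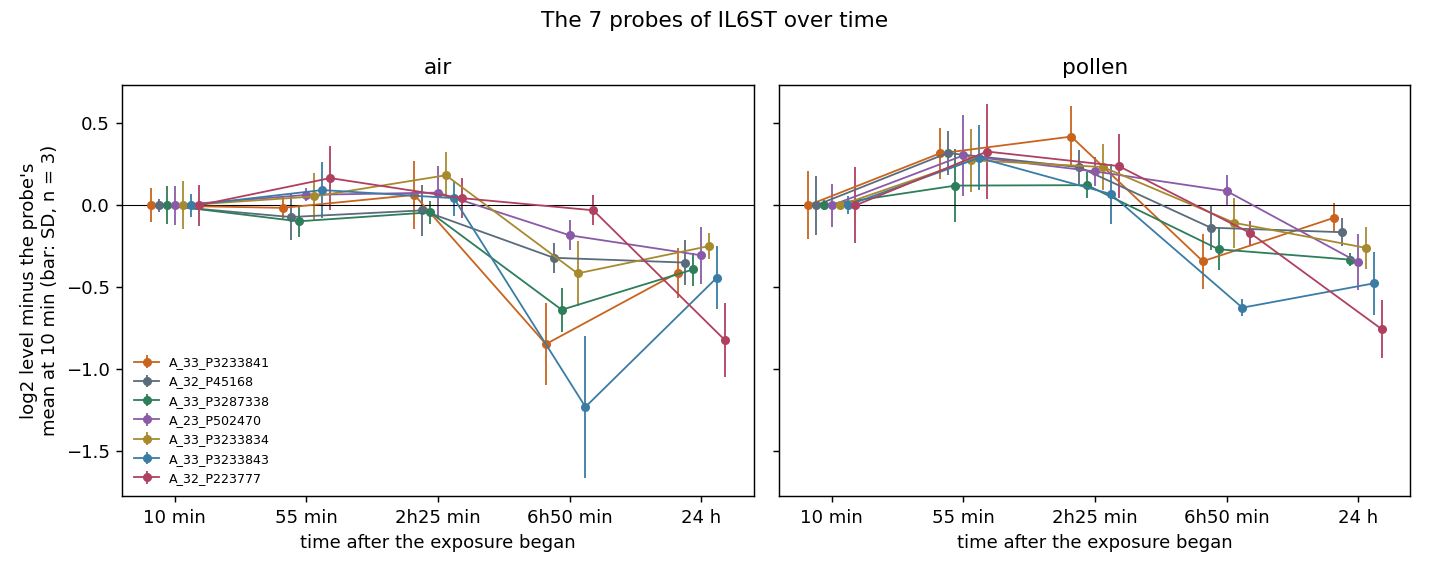
Level of the 7 IL6ST probes over time (horizontal axis) in air (left) and in pollen (right), as the log2 level minus the same probe's mean at 10 min (vertical axis); points are means and bars SDs of 3 arrays. The probes run together up to 2h25 min and part at 6h50 min in both arms. In air their difference from 2h25 min runs there from -1.27 to -0.07. The value of -1.27 is of A_33_P3233843, which lies in a dim area of air replicates 1 and 2. All probes lie below 0 at 24 h.

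The 2 STAT3 probes went opposite ways into 6h50 min. A_24_P116805, the brighter, differed from 2h25 min by -0.33 in air (limma adjusted p = 0.11) and by -0.28 in pollen (0.183). The other, A_23_P100795, rose by 0.55 in air (limma adjusted p = 0.013) and by 0.57 in pollen (0.0105), and fell again by 24 h by 0.68 and 0.98 (0.00221 and 9.39e-05). No direction is given for STAT3 at 6h50 min for that reason. The second OSMR probe, A_23_P156289, fell in pollen from 6h50 min to 24 h by 0.53 (limma adjusted p = 0.0159), as the first did. Into 6h50 min the OSMR probes went apart. In air the second went from -2.78, -2.38 and -2.54 at 2h25 min down to -2.96, -3.14 and -2.68. The first went from -0.52, -0.33 and 0.05 up to 0.06, 0.01 and -0.17 by its mean. No direction is given for OSMR into 6h50 min either. The second IL6R probe, A_21_P0000171, is missing from the second-design array and passed in none of the comparisons.

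The other genes of the pathway were grouped in 4 lists by their role. Among 12 tested other ligands and receptors, 11 other JAK and STAT transducers and 16 other inhibitors, 0 genes were called between pollen and air at any of the 5 times. Over all probes at most 0.0436% were called at any of these times, so that this count is no result about the lists. At 2h25 min the ligands and receptors had a median difference of 0.06 with 8 of 12 positive and 0 at an unadjusted p under 0.05. The transducers had a median of -0.018 with 5 of 11 positive, and PTPN11, the phosphatase SHP2 that binds gp130, had the smallest p-value, with a log2 difference of 0.22 (limma adjusted p = 1). The inhibitors had a median of 0.026 with 10 of 16 positive, and CBL, PTPN1 and SOCS5 had the smallest p-values, with log2 differences of 0.37, 0.18 and 0.32, each at a limma adjusted p of 1.

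At 6h50 min the genes of these lists with the smallest p-values were IL27RA, a receptor chain for interleukin-27, and its ligand subunit EBI3, with log2 differences of 0.36 and 0.88 and limma adjusted p-values of 0.631 and 0.67. At 24 h they were CLCF1, a gp130 ligand, and JAK3, with log2 differences of -0.33 and 0.42, both at a limma adjusted p of 1. SOCS4 at 10 min (log2 difference -0.29, limma adjusted p = 1) and PTPN1 at 55 min (0.19, adjusted p = 0.92) were the others under an unadjusted 0.05.

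The known STAT3 targets, 26 tested of 30 listed, had their highest median at 2h25 min, 0.28, with 25 of 26 positive, where 41.6% of all probes were positive. PIM1, a serine/threonine kinase of cell survival, was up-regulated (0.68 ± 0.12, SE, n = 3 against 3, limma adjusted p = 0.0418) and was the 1 gene of the list called, where 0.0343% of all probes were called. Its level was 0.35 ± 0.13 in air and 1.03 ± 0.22 in pollen (SD, n = 3), and the call was lost without air replicate 1, 2 or 3 or pollen replicate 1 or 2 (adjusted p = 0.0823 to 0.446). Next came the transcription factor gene MYC (1.07 ± 0.21, limma adjusted p = 0.0587), BCL3, a partner of NF-kB (0.84 ± 0.19; 0.229), and BCL6, a transcriptional repressor (0.42 ± 0.12; 0.786), none of which passed. With the replicate number as a block MYC was called (limma adjusted p = 0.00479). Many genes of the list also answer to growth factors and NF-kB, so that the list is not a measure of STAT3 activity alone.

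At 55 min 17 of 26 STAT3 targets were positive with a median of 0.08, and FOS, an immediate early gene, had the smallest p-value, with a log2 difference of 1.77 ± 0.64 (limma adjusted p = 0.92). Without air replicate 3 at 55 min the FOS difference was 3.02 and passed (limma adjusted p = 0.00304), and that array was also the air array of highest IL6 and LIF at its time. At 6h50 min 23 of 26 were positive with a median of 0.20 and 0 called, and NNMT, a methyltransferase of nicotinamide, and ICAM1, an adhesion molecule, had the smallest p-values, with log2 differences of 0.40 and 0.46 and limma adjusted p-values of 0.267 and 0.269. At 24 h 11 of 26 were positive with a median of -0.05, and at 10 min 10 of 26 with a median of -0.04, with 0 called at both. Over all probes 0.0436% were called at 6h50 min, 0.00312% at 24 h and 0% at 10 min. Within pollen MYC (1.16, limma adjusted p = 0.00929) and KLF4 (0.87; 0.0194) rose from 10 to 55 min and BCL3 (1.24; 0.00296) from 55 min to 2h25 min, and the first pair lost its calls without pollen replicate 1 at 10 min (0.0602 for both), KLF4 also without replicate 2 (0.0975). With slide as a block the MYC difference from 10 to 55 min was 0.56 and that of KLF4 0.31, neither called. For this step the block depends on 1 array, air replicate 1 of 55 min on slide 1. BCL3 from 55 min to 2h25 min was called with that block (1.31, limma adjusted p = 0.0115).

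**Figure D5:**
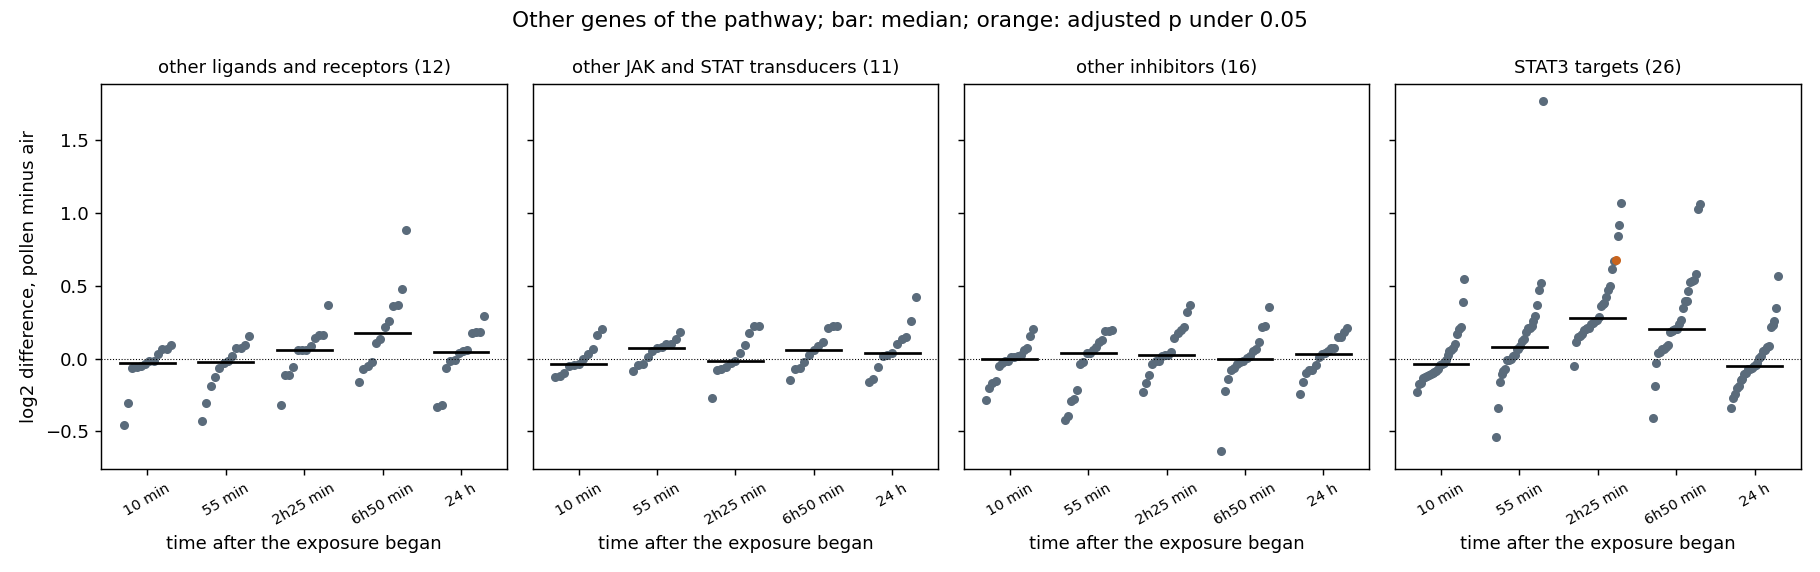
Log2 difference between pollen and air (vertical axis) for every tested gene of the 4 lists (panels, number of genes in brackets) at the 5 times (horizontal axis); each point is a gene, bars are medians, and the orange point passed at an adjusted p under 0.05. The STAT3 targets at 2h25 min lie above 0 for 25 of 26 genes, with PIM1 as the orange point.

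Among 17853 gene symbols with 1 probe each, the genes whose level ran most like SOCS3 over the 30 arrays were EFNA1 (r = 0.89), ITPKC (0.84), PDGFB (0.84), SPRY2 (0.84) and LAMB3 (0.83). For LIF they were FOSL1 (0.89), FOSL2 (0.88), MAFF (0.88), SOWAHC (0.86) and UGCG (0.86). These are Pearson correlations over arrays that share slides, times and exposures, given as a description. EFNA1 encodes a membrane-bound ephrin, SPRY2 an inhibitor of growth factor signalling, and FOSL1, FOSL2 and MAFF basic leucine zipper transcription factors.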

How the data were processed

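Each of the 30 arrays holds Cy3-labelled RNA of 1 BEAS-2B culture. The authors deposited the spot intensity files of Agilent Feature Extraction 11.0.1.1, whose processed intensity has the background taken off and is detrended, with no scaling from array to array. The authors also deposited log2 values, which by their distribution are quantile normalized and served as an alternative. Of the 29 columns set against the arrays, 23 matched their own array best and 6, all of 24 h, another array of the same group, so the scanner files' own labels were used.

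Spots marked as non-uniform or population outliers were dropped, replicate spots averaged, put on the log2 scale and reduced by the array's 75th percentile over probes on both designs. With R 4.3.3, data.table (version 1.17.8) and limma 3.58.1, 10 group means were fitted to all 30 arrays (lmFit, eBayes) for the 32100 probes that each of the 3 arrays of some group had well above background. A call needs an adjusted p (Benjamini-Hochberg) under 0.05 and, outside interactions, a 1.1-fold change. A gene is represented by its probe of highest mean, with the others given beside it. A member's test is given where its unadjusted p was under 0.05, and always for IL6, LIF and SOCS3 at 55 min and 2h25 min. From the lists, called genes or the smallest p-values are named, and 1 gene is not reported here. Within 10 min, 2h25 min and 24 h the deviations of same-numbered pollen and air arrays correlated over all probes at no less than 0.30, 0.40 and 0.22, and so were taken as pairs. At 55 min (-0.12) and 6h50 min (0.05) they were not. Alternatives varied the background correction, scaling, filter on dim probes, blocks, array weights and arrays fitted, and left out each array in turn. Precision rests on 3 arrays per group, 2 where the second-design array lacks a probe. Members and lists were chosen with earlier results of these data known, and the comparison of 24 h with 2h25 min after seeing the data. Figures were drawn with Python 3.11.15 and matplotlib 3.10.9. The model was tested on simulated data.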

Additional observations from a re-analysis of the deposited data

How the results depend on the processing

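The number of members called between pollen and air at 2h25 min, 2 as reported, was 0 with each array scaled on its own probes or with only the 6 arrays compared, and 1 without a filter on dim probes or with weighted arrays. Of all probes these settings, in the same order, called 2, 0, 3 and 7 in place of 11. At 55 min the number of members called was 2 with weighted arrays in place of 0, where 231 of 32100 probes were called in place of 1. With weighted arrays the air step from 10 to 55 min gave 1 in place of 0, where 2914 of 32100 probes were called in place of 60. Scaling on own probes gave 2 in place of 4 for air and 2 in place of 5 for pollen from 2h25 to 6h50 min, 1 in place of 4 for air and 1 in place of 3 for pollen from 6h50 min to 24 h, 1 in place of 2 for air and 1 in place of 4 for pollen from 2h25 min to 24 h, and 0 in place of 2 for pollen from 10 to 55 min. Of all probes that scaling called 4075 in place of 10416 in air and 3959 in place of 9944 in pollen from 2h25 to 6h50 min. From 6h50 min to 24 h it called 6713 in place of 13012 and 5308 in place of 11622. From 2h25 min to 24 h it called 3711 in place of 8787 and 2516 in place of 7390. For pollen from 10 to 55 min it called 210 in place of 270. That pollen step also gave 0 members with slide as a block and with only the arrays compared, where 1 and 4 probes were called. From 55 min to 2h25 min pollen gave 3 with normexp and quantile normalization, 2 with own-probe scaling, 2 with probes above background on all arrays and 0 with only the arrays compared, in place of 1. Of all probes these settings called, in the same order, 87, 100, 97 and 0 in place of 65. From 2h25 min to 24 h slide as a block gave 1 in air and 2 in pollen, and only the arrays compared gave 1 in air. Of all probes these called 6692, 4979 and 5817, in the same order. Steps into or out of 6h50 min could not be fitted with slide as a block.

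With each array scaled on its own probes, 5 differences changed sign: SOCS3 (-0.17), PTPN1 (-0.22), BCL6 (-0.16) and KLF4 (-0.045) between pollen and air at 55 min, and IL6ST in pollen from 10 to 55 min (-0.10). All 5 involve the pollen group of 55 min, which holds the second-design array. The 75th percentile of that array was 861 over its own probes and 1414 over the shared probes. For pollen replicate 2 of 55 min these were 365 and 1418. Such scaling shifts all probes of an array by the same amount. IL6 in air from 10 to 55 min was -0.13 with slide as a block, a value that depends on 1 air array of 55 min on slide 1. The cause of the 5 changes under own-probe scaling was not tested.

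Leaving out 1 array at a time gave 1 to 2 members at 2h25 min between pollen and air and 0 at the other times and for interactions, 0 to 1 for air from 10 to 55 min, 0 from 55 min to 2h25 min, 3 to 4 from 2h25 to 6h50 min, 2 to 4 from 6h50 min to 24 h and 1 to 2 from 2h25 min to 24 h. For pollen it gave 1 to 2, 1, 4 to 6, 1 to 3 and 4. Calls over all probes were not counted for these fits. SOCS3 at 2h25 min was called in 17 of 19 alternatives and LIF in 11.

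With the replicate number as a block, IL6 at 2h25 min was called as well (1.45, limma adjusted p = 0.0436), and 44 probes in place of 11. Between pollen and air the block changed no other call of a member, and among the list genes it added MYC at 2h25 min. At 6h50 min, where the numbers were not taken as pairs, it added ICAM1 and NNMT, with 135 probes called in place of 14. Over the alternatives the probes called at 2h25 min ran from 0 to 44 and at 6h50 min from 0 to 530, in place of 11 and 14.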

Other observations

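The differences of LIF and SOCS3 at 2h25 min were larger on slide 2, at 1.30 and 1.36, than on slide 4, at 0.70 and 0.70, and the difference between slides was not tested. Precision is set by 3 arrays per group, or by 2 for probes that the second-design array lacks, and for IL6 a 95% interval at 2h25 min of 0.35 to 2.54 leaves its size loosely fixed. The second LIF probe, well above background on 10 of 30 arrays, adds no measurement of LIF, and LIF has no sequence printed here. The protein levels of these cytokines and the phosphorylation of STAT3 were not analysed here.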
